A study of Mus musculus with 40 samples.

Results

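The loci of 9 Krüppel-like factor (KLF) genes (Klf3, Klf4, Klf6, Klf9, Klf10, Klf11, Klf12, Klf13 and Klf15) were examined for binding of the corepressors SMRT and NCoR and of the histone deacetylase HDAC3 in fed mouse liver. Every peak whose centre lay inside one of these genes or within 100 kb of it on mm10 was taken, which gave 175 of the 60254 peaks in the 3 peak lists: 93 of 35138 NCoR peaks, 46 of 14462 HDAC3 peaks and 36 of 10654 SMRT peaks. Peaks of different cofactors whose centres lay within 200 bp of each other were merged, so that the windows held 96 of 35999 sites. A site with all 3 cofactors is called shared, and the others are named by the cofactors present. The livers came from ad libitum fed male C57BL/6 mice of genotype Bcl6 fl/fl, which served as the control and carry a floxed but undeleted Bcl6 allele; the age was not given in the labels. Chromatin was mapped by ChIP-seq (immunoprecipitation of protein-bound DNA followed by sequencing), and each list pooled 3 libraries, so no spread between animals can be given. The other 31 of the 40 samples in the series were not analysed here.

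KLF proteins bind GC-rich and CACCC sequences through zinc fingers at their carboxy terminus and differ in the cofactors bound by the rest of the protein. KLF3 and KLF12 bind the corepressor CtBP, KLF4 and KLF6 work largely with acetyltransferases, KLF9, KLF10, KLF11 and KLF13 bind the corepressor Sin3, and KLF15 stands apart from these groups. In liver, Klf15 is known for its induction in fasting and for control of amino acid breakdown and gluconeogenesis, and Klf9 is known as a glucocorticoid-responsive gene. NCoR and SMRT are related scaffold proteins that bring HDAC3 to DNA-bound repressors, and each can activate the enzyme.

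For the 7 KLF genes whose own transcription start site (TSS) was the nearest TSS of at least 1 shared site in the window, the closest such site is shown first, because all 3 cofactors were listed together there. Each line is the whole NCoR interval of 229 bases, 5′ to 3′ on the forward strand, read from the RefSeq copy of GRCm38.p6 (mm10). Capitals mark letters within the central 200 bp that match at least one of the 12 motifs described further on, in either orientation.
Klf3 chr5:64806335-64806563: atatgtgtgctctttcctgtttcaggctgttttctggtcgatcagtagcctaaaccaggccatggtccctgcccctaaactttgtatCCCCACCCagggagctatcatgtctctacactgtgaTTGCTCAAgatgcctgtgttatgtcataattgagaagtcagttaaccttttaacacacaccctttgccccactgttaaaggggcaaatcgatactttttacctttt
Klf4 chr4:55568086-55568314: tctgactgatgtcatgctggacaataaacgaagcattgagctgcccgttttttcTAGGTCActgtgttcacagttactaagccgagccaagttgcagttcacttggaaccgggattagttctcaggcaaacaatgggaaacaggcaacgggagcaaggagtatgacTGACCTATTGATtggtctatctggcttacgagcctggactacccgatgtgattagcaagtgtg
Klf9 chr19:23135810-23136038: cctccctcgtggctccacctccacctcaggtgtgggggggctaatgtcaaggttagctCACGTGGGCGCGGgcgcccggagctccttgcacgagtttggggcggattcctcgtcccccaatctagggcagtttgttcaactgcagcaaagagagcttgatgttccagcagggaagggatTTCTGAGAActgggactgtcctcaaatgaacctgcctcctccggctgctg
Klf10 chr15:38289235-38289463: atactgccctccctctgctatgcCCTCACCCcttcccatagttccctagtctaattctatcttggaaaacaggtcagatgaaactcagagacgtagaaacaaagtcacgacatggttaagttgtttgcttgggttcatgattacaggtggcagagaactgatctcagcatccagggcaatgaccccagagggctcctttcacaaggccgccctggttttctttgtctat
Klf11 chr12:24642377-24642605: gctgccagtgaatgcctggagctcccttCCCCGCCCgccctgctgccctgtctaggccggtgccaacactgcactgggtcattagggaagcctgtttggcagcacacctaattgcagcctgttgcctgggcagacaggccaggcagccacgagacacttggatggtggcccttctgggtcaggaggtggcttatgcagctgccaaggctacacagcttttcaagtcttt
Klf12 chr14:100134323-100134551: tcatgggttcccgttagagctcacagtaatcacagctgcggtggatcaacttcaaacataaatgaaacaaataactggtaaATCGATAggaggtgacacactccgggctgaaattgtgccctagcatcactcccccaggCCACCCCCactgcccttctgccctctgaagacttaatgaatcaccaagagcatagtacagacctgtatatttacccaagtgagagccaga
Klf15 chr6:90475990-90476218: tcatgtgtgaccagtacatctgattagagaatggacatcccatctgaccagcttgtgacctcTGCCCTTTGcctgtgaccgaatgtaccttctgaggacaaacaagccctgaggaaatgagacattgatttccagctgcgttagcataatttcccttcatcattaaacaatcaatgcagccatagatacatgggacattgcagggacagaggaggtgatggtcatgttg
The Klf3 and Klf12 stretches lay in introns of those genes, and the Klf4 stretch lay in an intron of the noncoding gene Gm12511. Those of Klf9, Klf10, Klf11 and Klf15 were intergenic.

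All 9 KLF genes had sites within 100 kb, between 4 at Klf6 and 20 at Klf15. Of the 96 sites, 27 were shared, 44 held NCoR only, 16 held NCoR with HDAC3, 6 held NCoR with SMRT and 3 held HDAC3 with SMRT. No site with SMRT or HDAC3 alone was listed, which with 96 sites allows a share of each of up to 3.77% (exact upper limit at 95% confidence). Among NCoR peaks in the windows, 27 of 93 had both partners within 200 bp (29.0%, exact 95% interval 20.1 to 39.4), beside 24.9% of all NCoR peaks. Another 44 of 93 had neither partner (47.3%, interval 36.9 to 57.9), beside 56.1% of all NCoR peaks. Both genome-wide shares lay inside the intervals of the KLF windows, so no difference in the mix of cofactors was detectable with 93 peaks. These intervals treat each peak as 1 count and cover counting error only.

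**Figure D1:**
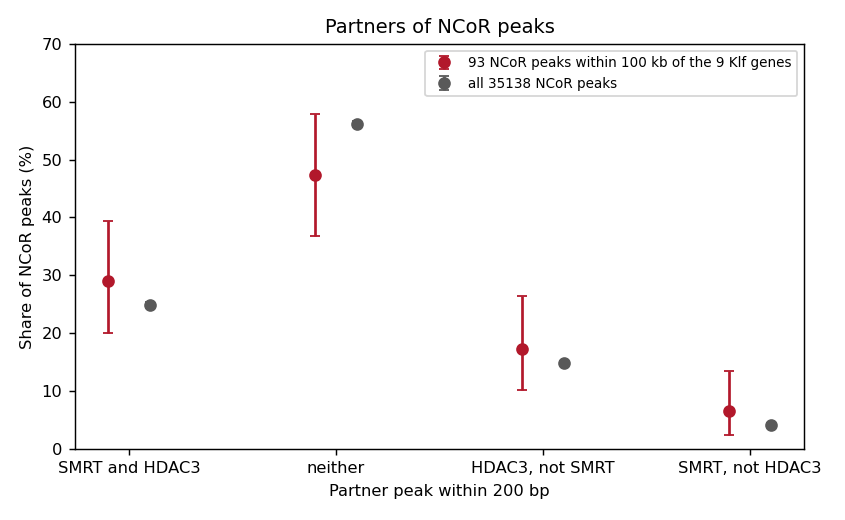
Share of NCoR peaks (vertical axis, %) with SMRT and HDAC3, with neither, with HDAC3 alone or with SMRT alone within 200 bp, for the 93 peaks in the 9 KLF windows (red) and all 35138 NCoR peaks (grey); bars are exact 95% intervals. The grey point lies within the red interval in each of the 4 categories.

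The density of sites was higher than over the whole genome. Windows drawn in the same way around other genes placed the 9 loci from near the top to below the middle. The windows spanned 2371 kb and held 4.05 sites per 100 kb, against 1.32 over all chromosomes analysed. Single windows ran from 1.91 sites per 100 kb at Klf6 to 9.40 at Klf15. When each of 21938 protein-coding genes was given a window of its body and 100 kb on either side, the median was 5 sites and 1 shared site. The medians for the 9 KLF genes were 10 and 3. Klf15 stood highest, since 2.24% of all protein-coding genes had at least 20 sites in their window. Klf11 followed, with 7.74% of genes at or above its 15 sites. At the other end, 58.3% of genes had at least as many sites as Klf6, and 45.4% had at least as many as Klf4. Klf3, Klf9 and Klf15 had 5 shared sites each in their windows, a number reached by 6.99% of genes.

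Assignment to the nearest TSS left 67 of the 96 sites (69.8%, exact 95% interval 59.6 to 78.7) with a KLF gene and gave 29 to neighbours. All 9 KLF genes kept at least 1 site, beside 48.2% of all protein-coding genes within the same distance. Within the windows, 7 of the 9 kept at least 1 shared site, beside 19.8% of all protein-coding genes counted in the same way. When TSSs of every gene type were allowed, noncoding genes included, the 69.8% fell to 21.9% and the 7 genes to 3. The stretch of DNA closer to a KLF TSS than to any other coding TSS had a median of 253 kb over the 9 genes. It ran from 50.1 kb at Klf11 to 1018 kb at Klf12. The median for all protein-coding genes was 47.0 kb, so these counts of nearest sites are not like for like. Of the 67 sites, 23 were shared (34.3%, interval 23.2 to 46.9), beside 24.3% of all sites. Of the 29 sites nearest to other genes, 4 were shared (13.8%, interval 3.89 to 31.7). The share over all sites lay inside both intervals, and the intervals overlapped.

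**Figure D2:**
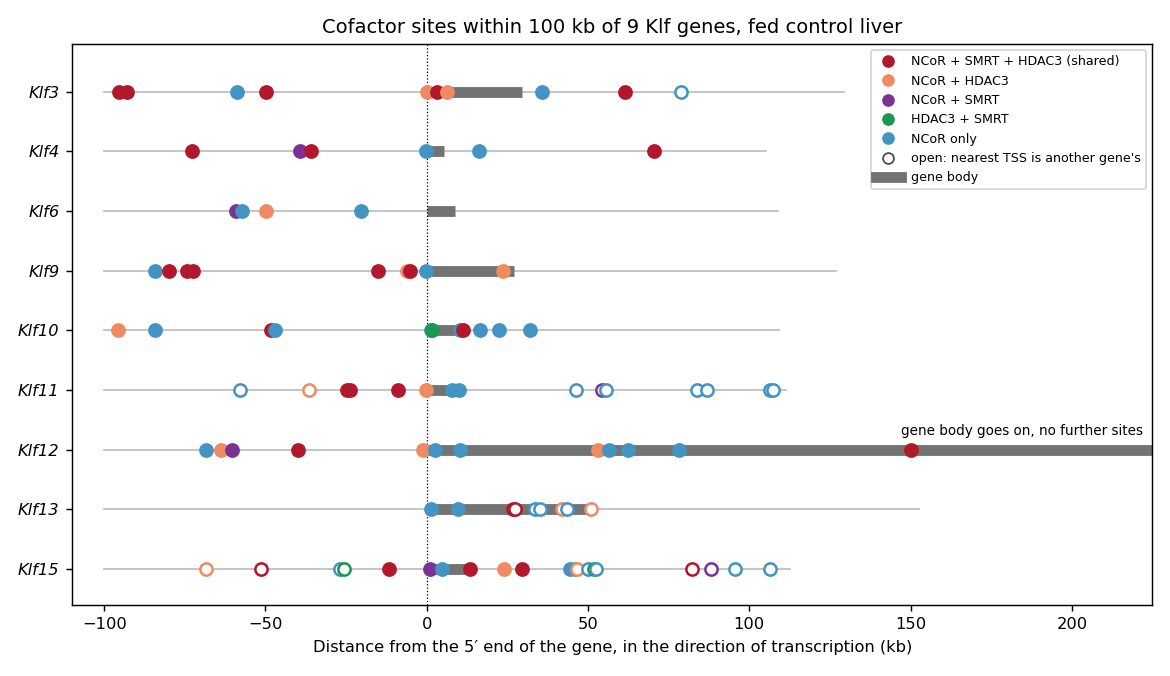
Each row is 1 KLF gene drawn in its direction of transcription, with distance from its 5′ end in kb on the horizontal axis; dots are merged sites coloured by class, open dots lie nearest to another gene's TSS, grey bars are gene bodies and thin lines the windows. Klf6 has 4 sites, all upstream, while the 9 sites of Klf13 all lie inside the gene.

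Klf3 encodes a repressor of adipocyte and erythroid genes. The gene lay on chr5:64803388-64832901 on the forward strand and had 10 sites in its window, of which 9 were nearest to one of its 2 annotated TSSs. Its 5 shared sites lay 95.5, 93.0 and 49.9 kb upstream of the TSS, 3.06 kb downstream in an intron, and 52.6 kb downstream of the second TSS. The pair farthest upstream was separated by 2556 bp. A site with NCoR and HDAC3 covered the TSS itself, with its centre 9 bp downstream in the 5′ UTR, and a second one of this class lay 2777 bp upstream of the internal TSS. The remaining Klf3 sites held NCoR only, and the tenth site of the window, also NCoR only, was nearest to Tlr1. Klf3 thus had NCoR and HDAC3 at its start and all 3 cofactors on both sides of it.

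Klf12, the other CtBP-binding member, is the longest of the 9 genes (chr14:99870632-100284679, reverse strand, 414 kb). Its 12 sites were all nearest to Klf12, and 7 of them lay inside the gene. Only 2 were shared, 1 at 39.8 kb upstream of the gene and 1 in an intron 15.3 kb downstream of the internal TSS. The 3 NCoR plus HDAC3 sites lay 63.7 kb and 1254 bp upstream and 53.1 kb downstream of the first TSS. A single NCoR plus SMRT site lay 60.3 kb upstream. The other 6 sites held NCoR only, 5 of them in introns. No site was listed in the last 264 kb of the gene body, counted from the intronic shared site to the 3′ end.

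Klf4 encodes a factor known for its part in epithelial differentiation and in reprogramming. The short gene (chr4:55527143-55532466, reverse strand) had no site inside its body. Its 6 sites included 3 shared sites at 72.7 and 35.7 kb upstream and 70.4 kb downstream. A NCoR plus SMRT site lay 39.2 kb upstream, and the 2 NCoR-only sites lay 103 bp upstream and 16.3 kb downstream of the TSS. The nearest shared site of Klf4 was therefore farther from its TSS than that of any other gene among the 7 shown above.

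Klf6, an early-response gene widely induced by injury, had the fewest sites. Its 4 sites all lay upstream of the gene (chr13:5861482-5870394, forward strand) and were intergenic, at 59.1 kb (NCoR plus SMRT), 57.4 kb (NCoR only), 49.7 kb (NCoR plus HDAC3) and 20.4 kb (NCoR only). No shared site was listed in its window, although all 3 cofactors were present at different sites. Over its whole stretch of nearest DNA, which reached 969 kb, Klf6 had 8 sites and 2 of them were shared, both outside the window.

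Klf9 encodes a Sin3-binding repressor that also responds to thyroid hormone. Of its 9 sites, 5 were shared and 8 lay upstream of the TSS (chr19:23141226-23168134, forward strand). A run of 3 shared sites stood at 79.9, 74.3 and 72.3 kb upstream, in an intron of the noncoding gene C330002G04Rik, separated by 5607 and 1984 bp. The other shared sites lay 15.3 and 5.30 kb upstream. NCoR with HDAC3 was listed 6.24 kb upstream and in the 3′ untranslated part of Klf9, 23.8 kb downstream of the TSS. NCoR alone lay 153 bp and 84.2 kb upstream.

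Klf10, first described as an early gene induced by transforming growth factor beta, had the most NCoR-only sites nearest to a KLF gene, with 7 of 11 (chr15:38291463-38300706, reverse strand). Its shared sites lay 48.2 kb upstream and 9.73 kb downstream of the closer TSS. NCoR with HDAC3 was listed once, 95.6 kb upstream. Of the 7 NCoR-only sites, 4 lay downstream at 8.78, 15.0, 20.9 and 30.3 kb from the TSS, and 3 lay 84.2 kb, 47.1 kb and 384 bp upstream of the closer TSS. The remaining site, with HDAC3 and SMRT, lay at the internal promoter and is taken up with the promoters.

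Klf11, a close relative of Klf10, had several other coding genes in its window (chr12:24651274-24662789, forward strand). Of 15 sites, 6 were nearest to Klf11, 7 to Rrm2, which encodes a subunit of ribonucleotide reductase, and 2 to Grhl1, which encodes a grainyhead-like factor. The 3 shared sites of the window were all nearest to Klf11, at 24.7, 23.9 and 8.78 kb upstream, and the outer pair lay 839 bp apart. None of the 9 sites nearest to Rrm2 or Grhl1 was shared, beside 24.3% of all sites, and with so few sites this was not tested. NCoR with HDAC3 lay 132 bp upstream of the Klf11 TSS, and NCoR alone lay 7868 and 10001 bp downstream, inside the gene.

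Klf13 encodes a Sin3-binding factor close to KLF9, and the count of its sites depended on how they were assigned. All 9 sites of its window lay inside the gene (chr7:63886351-63938915, reverse strand), and none lay in the 100 kb on either side. Only 2 of them, both NCoR only, were nearest to a Klf13 TSS, at 1252 and 4419 bp upstream of its downstream TSSs. The other 7 were nearest to the TSS of E030018B13Rik, a coding gene within Klf13 on the opposite strand. These included 2 shared sites in an intron of Klf13, 524 bp apart and 12.8 and 13.3 kb from the closest Klf13 TSS. Klf13 was counted without a shared site by nearest TSS and with 2 by gene body.

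Klf15 had the most crowded window (chr6:90462576-90475238, forward strand). Of its 20 sites, 8 were nearest to Klf15, 8 to Aldh1l1, which encodes a folate-metabolizing dehydrogenase, 3 to Cfap100 and 1 to Zxdc. The 3 shared sites nearest to Klf15 lay 11.6 kb upstream of the gene, 9.70 kb downstream of the last TSS just beyond the 3′ end, and 25.8 kb downstream in an intron of Aldh1l1. The 2 sites within the gene were an NCoR plus SMRT site in an intron, 973 bp downstream of a TSS, and an NCoR-only site in coding sequence, 786 bp downstream of the last TSS. NCoR with HDAC3 lay 20.3 kb downstream, and NCoR alone lay 40.6 and 42.0 kb downstream. Klf15 was the only gene of the 9 with most of its own sites downstream of a TSS (7 of 8).

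**Figure D3:**
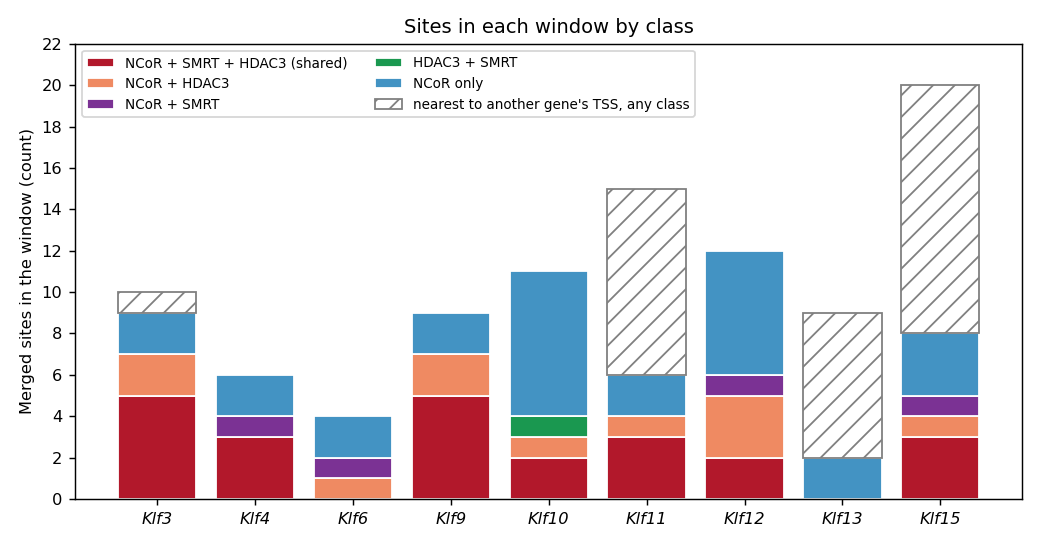
Stacked bars give the number of merged sites (vertical axis) nearest to the TSS of each KLF gene by class, and hatched parts are sites of the window nearest to another gene. Klf3 and Klf9 have 5 shared sites each, Klf6 and Klf13 have none, and most sites in the windows of Klf11, Klf13 and Klf15 are hatched.

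Taking the 9 genes by cofactor group, the 2 CtBP-binding members had 21 sites with 7 shared, and the 2 acetyltransferase-binding members 10 with 3 shared. The 4 Sin3-binding members had 28 with 10 shared, and Klf15 had 8 with 3 shared. Of all sites 24.3% were shared, and the group shares were not tested. The KLF genes outside the 9 were counted without a limit on distance. Among these, 2 Sin3-binding genes had 12 sites with 0 shared and 4 acetyltransferase-binding genes 11 with 1 shared. Of the others, 1 CtBP-binding gene had 0 sites and 1 ungrouped gene 4 with 0 shared. Genes of 1 group could stand far apart, as did Klf9 with 5 shared sites and Klf13 with none.

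At the promoter, taken as 1000 bp upstream to 100 bp downstream of any annotated TSS of the gene, 5 of the 9 KLF genes had a site (Klf3, Klf4, Klf9, Klf10 and Klf11), beside 17.4% of all protein-coding genes. None of these 6 promoter sites was shared. Among all protein-coding genes 2.34% had a shared site at a promoter, and of all sites at promoters 13.4% were shared, so that 0 of 6 (exact upper limit 45.9%) was within what counting allows. The promoter sites held NCoR only at Klf4, Klf9 and Klf10, NCoR with HDAC3 at Klf3 and Klf11, and HDAC3 with SMRT at Klf10. Shared sites stood farther out. The shared site closest to a KLF TSS was the one 3061 bp into Klf3, and the median distance of the 23 shared sites from the KLF TSS was 35.7 kb, against 20.6 kb for the 28 NCoR-only sites. Over all sites these medians were 21.96 and 16.3 kb, in the same order. The 5 NCoR peaks at KLF promoters had a GC content of 63.5 to 79% in their central 200 bp, and the other 61 NCoR sites nearest to a KLF gene had 32.5 to 72% with a median of 49%, close to the 48% of all NCoR peaks.

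**Figure D4:**
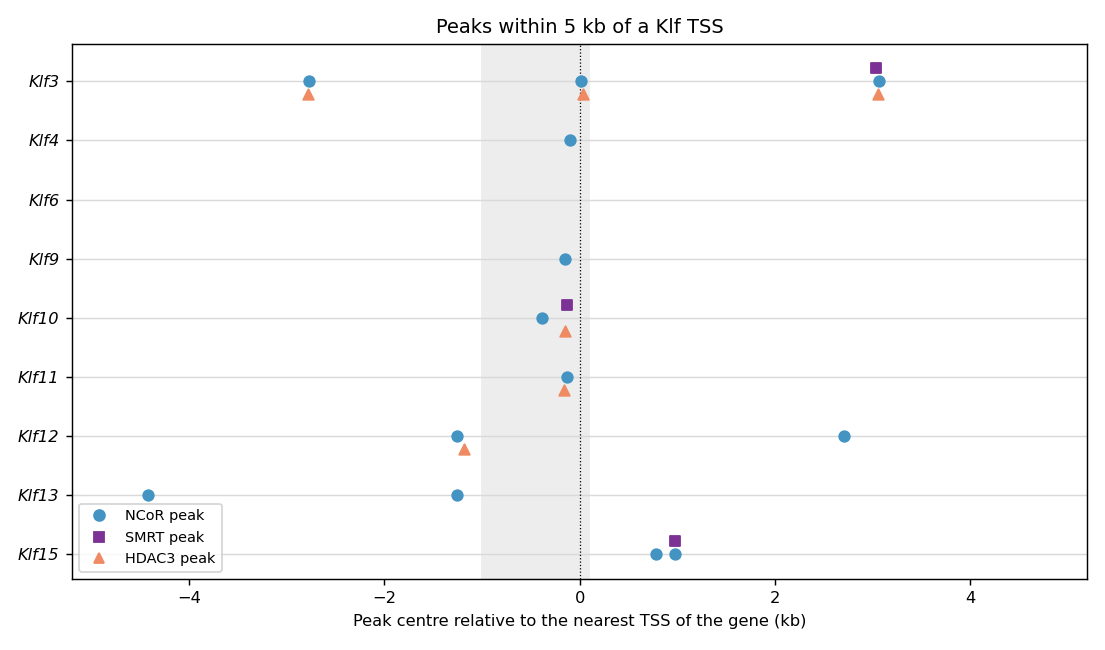
Peak centres within 5 kb of the closest annotated TSS of each KLF gene (horizontal axis, kb; negative is upstream), with NCoR as circles, SMRT as squares and HDAC3 as triangles; the shaded band is the promoter as defined. All 3 symbols stand at the same place only for Klf3 at 3.06 kb, and at Klf10 the SMRT and HDAC3 symbols lie beside the NCoR symbol.

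The internal promoter of Klf10 held all 3 cofactors without counting as a shared site. SMRT (chr15:38299109-38299321) and HDAC3 (chr15:38299129-38299341) had their joint centre 143 bp upstream of the internal TSS, and the NCoR interval (chr15:38299352-38299580) began 10 bases beyond the HDAC3 interval. The centres lay 241 bp apart, just past the 200 bp limit. Sites with HDAC3 and SMRT but no NCoR were scarce, with 78 in the whole set of 35999 (0.217%), and 3 of the 96 sites in the KLF windows were of this class (3.13%, exact 95% interval 0.649 to 8.86), so that the share over all sites lay below the interval. Of the 67 sites nearest to a KLF TSS, 1 was of this class (1.49%, interval 0.0378 to 8.04), and that interval held the share over all sites. The other 2 lay in the Klf15 window, nearest to Cfap100 and Aldh1l1, with the closest NCoR centre 1264.5 and 498.5 bp away. Over all 78 such sites the median distance to the closest NCoR centre was 503 bp, and 57 had NCoR within 1000 bp. The Klf10 pair was the closest of the 78. With 400 bp as the limit, the Klf10 promoter became a shared site, the only one at a promoter of the 9 genes.

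At the 27 shared sites in the windows the definition itself held partners within 200 bp, and most centres lay within 50 bp of NCoR. SMRT was offset from NCoR by a median of 22 bp (1 to 124 bp), and HDAC3 by a median of 19 bp (2 to 53 bp). Offsets of at most 50 bp were found at 24 of 27 sites for SMRT and at 25 of 27 for HDAC3. Medians over all shared sites were 23 and 21 bp. The widest SMRT offsets were at the Klf9 site printed above (124 bp) and at the shared site 11.6 kb upstream of Klf15 (121 bp).

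Sites at these loci also lay near each other. In the windows, 78 of 96 sites (81.3%) had another site within 10 kb, beside 63.0% of all sites. The windows were also denser in sites (4.05 against 1.32 per 100 kb), and this share was not set beside windows of other genes. Of 19 pairs of neighbouring shared sites, 6 lay within 10 kb, and these were at Klf3, Klf9 (3 pairs), Klf11 and Klf13. As to the limit of 100 kb, the outermost sites lay 59.1 to 95.7 kb from the gene for the 8 genes with a site outside the gene body, and the first site beyond the window lay 103 to 206 kb away.

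The remaining KLF genes and the related Sp genes, which bind the same kind of sequence, were as groups nearest to fewer sites. Their median stretch of nearest DNA was also shorter, and densities over these stretches were not compared. The lower totals therefore do not show a lower density. Single genes did not all follow, since Sp3 (18 sites) and Klf14 (12) had more than Klf6 and Klf15 (8 each), Klf11 (6) or Klf13 (2). Without a limit on distance, the 9 KLF genes described here were nearest to 99 sites, 39 of them shared, with medians of 13 sites and 3 shared sites. The other 8 KLF genes (Klf1, Klf2, Klf5, Klf7, Klf8, Klf14, Klf16 and Klf17) had 27 sites, of which 1, at Klf2, was shared, and none of them had a site at its promoter. Klf14, named after its values were seen, had 12 sites and none was shared, beside 24.3% of all sites. With so few sites and this choice, the absence was not tested. The 9 Sp genes had 41 sites, 14 of them shared. Sp3 led with 8 shared sites among 18, a number of shared sites reached by 0.269% of all protein-coding genes, Sp1 and Sp5 had 2 each, and Sp2 and Sp4 had 1 each. Among the 9 genes, Klf4 ranked highest on this count with 9 shared sites, reached by 0.164% of genes, followed by Klf3 and Klf9 with 7 each (0.433%). These ranks were not adjusted for the stretch, which was 695 kb at Klf4, 356 kb at Klf3, 253 kb at Klf9 and 255 kb at Sp3. The median protein-coding gene had 47.0 kb. In the 100 kb windows Klf4 had 3 shared sites, reached by 20.9% of genes, and Klf3 and Klf9 had 5 each, reached by 6.99%. The median stretch of nearest DNA was 149 kb for the other 8 KLF genes, 49.1 kb for the Sp genes and 253 kb for the 9, so the numbers are set side by side and were not tested.

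Motif letters were searched in the central 200 bp of the 66 NCoR sites nearest to a KLF TSS, on both strands. The 12 motifs were BCL6/STAT (TTCNNNGAA), FOX (TGTTTAC), an HNF4 half-site (CAAAGNNCA), C/EBP (TTNNGCAA), HNF6 (TATNGAT), REV-ERB/ROR (TAGGTCA), ERR (TCAAGGTCA), a glucocorticoid core (ACANNNTGT), the E-box (CACGTG), KLF/SP (CCNCNCCC), CRE (TGACGTCA) and ETS (CCGGAAG). The KLF/SP letters, to which the products of these genes bind, were the most frequent, at 23 of 66 sites (34.8%, exact 95% interval 23.5 to 47.6), beside 19.9% of all NCoR peaks. They occurred at 8 of the 9 genes, all but Klf6, with 1 site each at Klf4, Klf11 and Klf13. The share of all genes with a match was not computed for this or any other motif. Base composition moved with the share of sites holding the KLF/SP letters. Among sites with GC content of at least 50%, 16 of 32 held the letters (50%, interval 31.9 to 68.1) beside 34.7% of all such NCoR peaks. Among those below 50% they were found in 7 of 34 (20.6%, interval 8.70 to 37.9) beside 9.27%. The genome-wide share was inside the interval in both parts.

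For the other 11 motifs the share over all NCoR peaks lay inside the interval at the KLF sites when all 66 were taken. Within the GC parts it lay outside for HNF6 and C/EBP, both at GC content of at least 50%, where HNF6 letters were at 4 of 32 sites (12.5%, interval 3.51 to 29.0) beside 3.15%, and C/EBP letters at 0 of 32 (upper limit 10.9%) beside 12.01%. HNF6 letters, the core read by a liver-enriched cut-homeodomain factor, were found at 10 of 66 sites (15.2%, interval 7.51 to 26.1) beside 8.44%. These sites belonged to 7 genes. BCL6/STAT letters were found at 8 of 66 (12.1%, interval 5.38 to 22.5) beside 7.10%, at Klf6, Klf9, Klf10, Klf12 and Klf15. C/EBP letters were also at 8 of 66, beside 19.1%, and the HNF4 half-site at 7 of 66 (10.6%) beside 15.2%. CRE letters were absent from the 66 windows and present in 0.552% of all NCoR peaks. No motif of the 12 was matched at 15 of the 66 sites, beside 32.2% of all NCoR peaks.

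The printed sequences show these matches. The Klf9 stretch held an E-box (CACGTG) whose last base began a KLF/SP match (GGGCGCGG on the forward strand), followed farther on by a BCL6/STAT match (TTCTGAGAA). The Klf4 stretch held a REV-ERB/ROR match on each strand (TAGGTCA and TGACCTA), the second sharing 2 bases with an HNF6 match (TATTGAT). Klf12 held HNF6 and KLF/SP letters, Klf3 held KLF/SP and C/EBP letters and, outside the central 200 bp and so in lower case, HNF6 letters (atcgata), Klf10 and Klf11 held KLF/SP letters, and Klf15 held an HNF4 half-site on the reverse strand (TGCCCTTTG). A match describes letters only and does not show that a factor was bound.

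**Figure D5:**
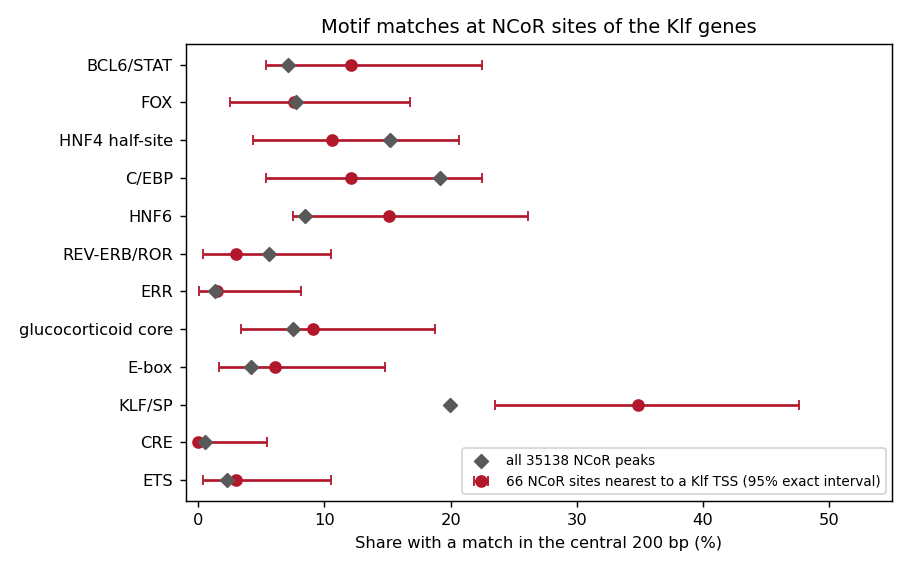
Share of NCoR sites with a match to each motif in the central 200 bp (horizontal axis, %), for the 66 sites nearest to a KLF TSS (red, with exact 95% interval) and for all 35138 NCoR peaks (grey diamonds). The grey diamond lies outside the red interval for KLF/SP and inside it for the other 11 motifs.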

How the data were processed

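Livers were dual-crosslinked before immunoprecipitation. Per the labels, reads were aligned to mm10 with Bowtie, and HOMER and DESeq2 were used; by the study's methods peaks were called on pooled replicates against input and kept by a fold and false discovery threshold over the individual libraries. The deposited lists give only chromosome, start and end of each peak, with no score, count or coverage (all other columns are empty), so peak strength could not be compared, and no source used here gave the sequencing depth. All intervals of a list have 1 length, from 212 to 228 bp. Reads with several matches were discarded, so repeats could lack peaks.

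From these positions, partners and merged sites were set by centres within 200 bp, nearest TSSs were taken from all transcripts of protein-coding genes in GENCODE vM21 basic, and sequences came from RefSeq GRCm38.p6. Python 3.11.15, numpy 2.4.6 and scipy 1.17.1 were used. Shares have exact Clopper-Pearson 95% intervals, and no significance test was made. The class, merging, nearest-TSS and motif steps were tested on simulated lists. All 9 genes were named; other genes in a window were named where they held at least 2 sites, or 1 where a count required it. Of the other KLF and Sp genes all were counted, and those with a shared site were named, with Klf14 added after its values were seen. One sequence a gene was chosen by the shared site nearest to its TSS. The genes, lists and motifs were chosen with earlier results of these data known.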

Additional observations from a re-analysis of the deposited data

How the results depend on the processing

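With another limit for partners and merging (100 bp, 400 bp or any overlap of the intervals), the windows held 95 to 98 sites and 26.9 to 30.1% of NCoR peaks were shared. Most changes came from the assignment of sites to genes. When TSSs of every annotated gene type were allowed, noncoding genes next to the KLF genes took many sites, the share nearest to a KLF TSS fell from 69.8% to 21.9%, and the KLF genes with a shared site went from 7 to 3 (Klf3, Klf10 and Klf12). Windows of 200 kb lowered the share nearest to a KLF TSS to 59.2% and held 142 sites; windows of 50 kb held 69. A promoter of 5000 bp on either side raised the genes with a promoter site from 5 to 8, all but Klf6. With 1000 bp on either side 6 genes had one, and with 1 TSS per gene 4 did. The share of all protein-coding genes was not computed for these settings, so the 17.4% of the main promoter does not compare with them. In the central 100 bp, 34 matches of a motif at a site were counted against 76 in 200 bp. In all, 31 of 36 such comparisons stayed within the main interval or within 1.5 times the main count. Of the 90 counts for single genes, 17 moved by more, 15 of them with TSSs of every gene type and 2 at Klf15 with 1 TSS per gene, which left it 3 sites and 1 shared site. No paired analysis was possible because the 3 libraries of a cofactor stand in 1 pooled list, and no single library could be left out either. A stricter peak threshold was not run, since the lists hold no score. Depth is unknown, so a missing partner may be a peak below the threshold of that list.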
